A study of Sus scrofa with 32 samples.

Results

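The 77 genes described here act in DNA replication and the cell cycle, or carry names from that nomenclature, in the liver of fetal pigs. They were chosen by a rule on symbols, from 6765 genes that have a probe set annotated to exactly 1 symbol. The choice was made with earlier results of these data known. The symbols begin with MCM and a digit, CCNA, CCNB, CCND, CCNE, CDC, CDK and a digit, CENP, ORC and a digit, POLA, POLD, POLE, RFC and a digit, AURK, BUB or PLK, or are RRM1, RRM2, TOP2A, PCNA, TYMS or MKI67. Of 23999 probe sets on the array, 109 met this rule. For the 25 genes with several probe sets, the probe set with the highest mean over all 32 arrays was used, and all 77 genes then passed the filter on low values. The rule does not reach every gene of the cycle: MCM6, MCM7, MKI67, CDK1, BUB1, CDC6, CCND1, CCND3, CCNE1 and CCNE2 had no probe set with a single symbol and were not analysed here. It also brings in genes with other functions, such as CDC42 and the proteins that bind it, and these are described apart.

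The series asked how maternal diets that differ in methylating micronutrients alter the liver transcriptome of the offspring. Liver RNA of 32 Pietrain fetuses was hybridised singly to Affymetrix porcine arrays. Fetuses from dams on the control diet were sampled at 35 dpc (days post conception, 5 arrays), 63 dpc (6 arrays) and 91 dpc (5 arrays), and fetuses from dams on the methyl-enriched diet at the same ages in the same numbers. The fetuses came from 5 to 6 gilts per stage by the study's design text, and no label ties an array to a dam, so littermates may be among the replicates and the p-values may be too small.

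A dividing cell first licenses its replication origins: the origin recognition complex loads the MCM helicase, which CDC45 helps to activate in S phase. DNA polymerases, the PCNA clamp and its RFC loader then copy the strands, fed by ribonucleotide reductase and thymidylate synthase, while topoisomerase II untangles the products. Cyclins and their kinases time these steps, and Aurora and Polo-like kinases, centromere proteins and the anaphase-promoting complex carry cells through mitosis. The fetal liver is also a blood-forming organ, and in bulk tissue fewer cells of a type and less RNA per cell cannot be told apart.

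All values are log2 signals, so a difference of 1 is a doubling, and differences are given with the standard error of the fit. A gene was called changed where the p-value of limma, adjusted by Benjamini-Hochberg over 15327 probe sets, was under 0.05. Array medians ran from 3.84 to 4.23. The arrays fell into 18 with a large gap between spike-in controls (1.39 to 1.83) and 14 with a small gap (0.16 to 0.39), with 3 large and 2 small in each diet at 35 and 91 dpc and 3 of each at 63 dpc. The 3′ to 5′ log2 ratio of control transcripts, a sign of RNA and labelling quality, averaged 2.05 ± 0.33 (SD, n = 10) at 35 dpc, 1.94 ± 0.36 (n = 12) at 63 dpc and 2.37 ± 0.52 (n = 10) at 91 dpc. At 63 dpc it was 2.09 to 2.60 on large-gap arrays and 1.46 to 1.90 on small-gap arrays. At 35 and 91 dpc the 2 ranges overlapped, with the highest ratios on large-gap and the lowest on small-gap arrays. The part of this ratio in the age differences was not tested, nor was it separated from the gap. The tissue label was borne out at each age by albumin (ALB), with a mean of 11.40 at 35 dpc, 14.77 at 63 dpc and 15.33 at 91 dpc.

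Most of these genes declined with gestational age, and the decline reached across helicase subunits, polymerases, cyclins and mitotic kinases. From 35 to 63 dpc, 46 of 77 genes fell, where 28% of all probe sets fell, and 14 rose, where 32.5% of all did. From 63 to 91 dpc, 53 fell, where 29% of all probe sets fell, and 9 rose, where 29.5% of all did. Over the whole span, 58 were lower at 91 than at 35 dpc and 14 were higher, beside 39.1% and 40.8% of all probe sets. The median difference of the 77 genes was -0.46 from 35 to 63 dpc, -0.75 from 63 to 91 dpc and -1.20 over the whole span, while the medians of all probe sets were 0.05, -0.03 and 0.005. The mean was highest at 35 dpc for 56 of the 77 genes (72.7%, against 43.1% of all probe sets) and lowest at 91 dpc for 59 of them (76.6%, against 46.2%). The 2 intervals share the 63 dpc arrays, so their differences are not independent of each other. The same shares of all probe sets are the background for the counts by role group and marker list below.

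More of the genes separated fully downward late than early. Between 35 and 63 dpc, 15 genes had every array at 63 dpc below every array at 35 dpc, as did 4.99% of all probe sets, and CDK7 alone had every array above (3.61% of all). Between 63 and 91 dpc, 26 genes were separated downward (6.94% of all) and none upward (6.11% of all). Across the whole span 46 genes were separated downward and 5 upward, beside 18.7% and 21.4% of all probe sets.

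**Figure D1:**
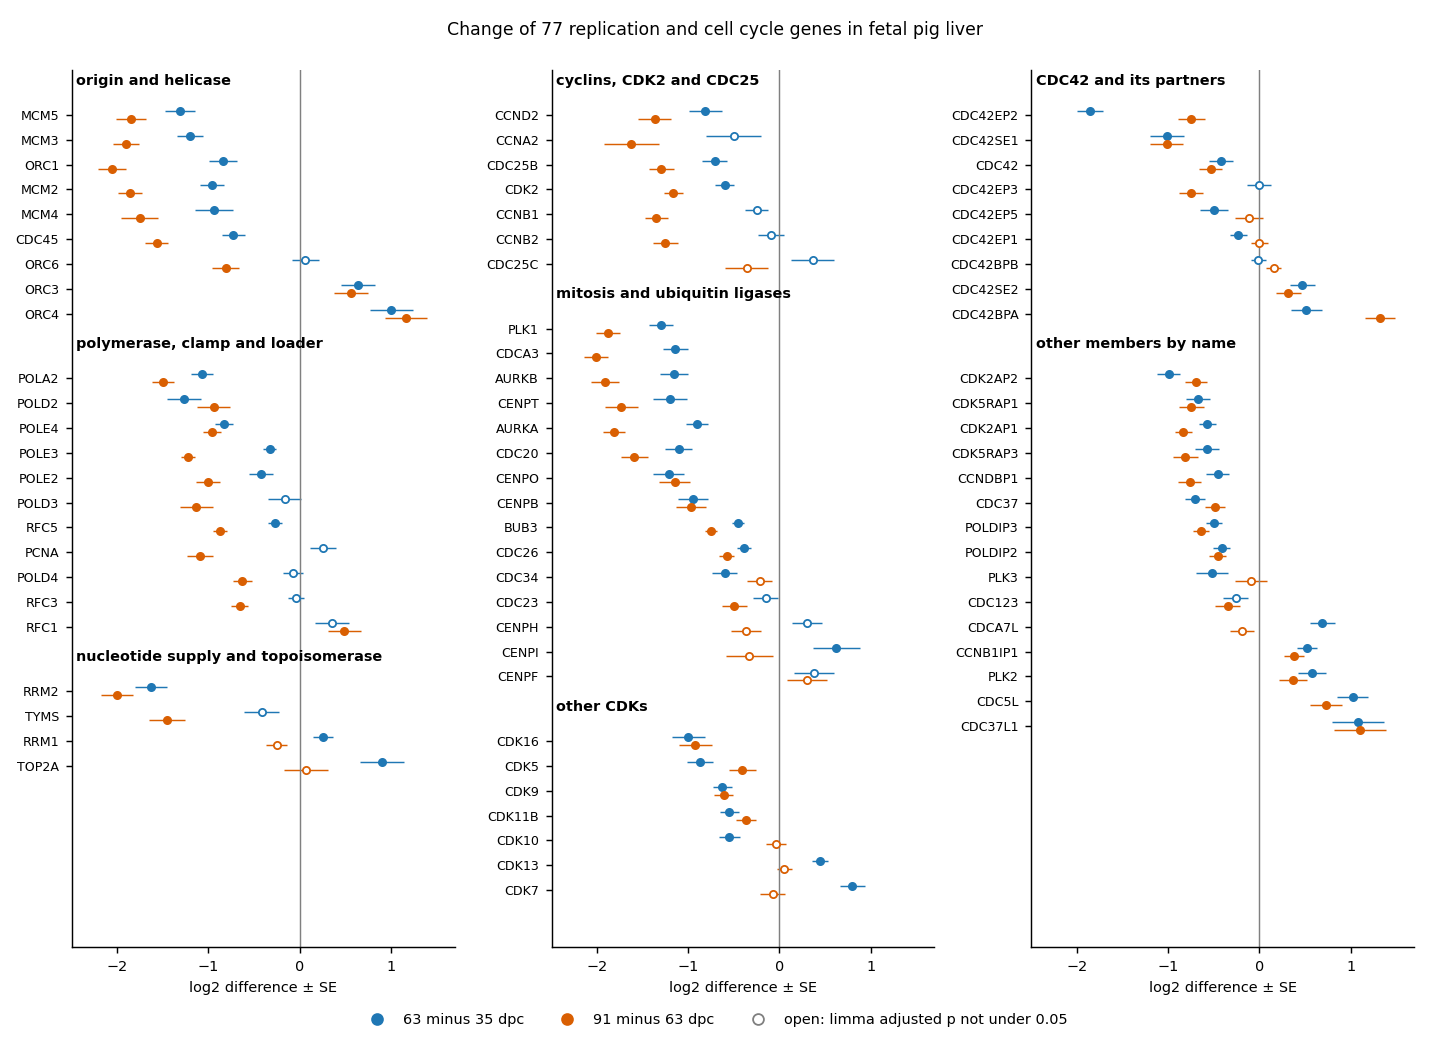
Log2 differences with standard errors for the 77 genes, grouped by role, from 35 to 63 dpc (blue) and from 63 to 91 dpc (orange), with open circles where limma's adjusted p was not under 0.05. Most points lie left of 0, RRM2 reaches -1.63 and -2.0, and ORC4, CDC37L1 and CDC5L lie right of 0 in both intervals.

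Origin licensing and helicase genes had a median difference of -2.69 over the whole span, the lowest median of the 8 role groups. By the mean over each group's genes, mitosis and ubiquitin ligases (0.75 to -0.90), origin and helicase (0.68 to -0.92) and cyclins, CDK2 and CDC25 (0.63 to -0.94) lay close together at 35 and 91 dpc, relative to each gene's mean over all arrays. Of 9 genes, 6 fell and 2 rose from 35 to 63 dpc, and 7 fell and 2 rose from 63 to 91 dpc. MCM2, a subunit of the replicative helicase, had array values from 10.08 to 10.80 at 35 dpc (median 10.22), from 8.88 to 9.81 at 63 dpc (median 9.37), and from 7.0 to 8.14 at 91 dpc (median 7.44). No array of one age overlapped those of another. The differences were -0.96 ± 0.13 and -1.86 ± 0.13 (limma adjusted p = 3.09e-07 and 9.69e-13), a 7.09-fold reduction over the whole span.

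MCM5, of the same ring, lay between 9.45 and 10.55 at 35 dpc (median 9.85), between 8.13 and 9.20 at 63 dpc (median 8.54), and between 6.0 and 7.42 at 91 dpc (median 6.96). These values also separated fully by age, and the level at 91 dpc was 8.97-fold lower than at 35 dpc (limma adjusted p = 4.2e-16). MCM3 fell by 1.20 and then by 1.90, an 8.59-fold reduction from 35 to 91 dpc without overlap between any ages. MCM4, the remaining MCM gene measured, fell by 0.94 ± 0.21 and 1.75 ± 0.21, but its ages overlapped pairwise except for 35 against 91 dpc. CDC45, which joins the helicase at origin firing, fell by 0.73 and 1.57 and was separated at each step.

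ORC1, an ATP-binding subunit of the origin recognition complex, had values from 8.85 to 9.19 at 35 dpc (median 9.07), from 7.77 to 8.66 at 63 dpc (median 8.28), and from 5.28 to 6.91 at 91 dpc (median 6.11). It was the steepest faller of the 77 genes from 63 to 91 dpc, at -2.06 ± 0.15 (4.16-fold, limma adjusted p = 2.17e-12), after -0.84 ± 0.15 in the first interval. ORC6 did not pass the test in the first interval (0.07 ± 0.15, limma adjusted p = 0.72) and fell by 0.81 in the second. ORC3 and ORC4, core subunits of the same complex, rose in both intervals. ORC4 values ran between 5.44 and 7.17 at 35 dpc (median 6.09), between 5.86 and 8.20 at 63 dpc (median 7.17), and between 7.82 and 8.99 at 91 dpc (median 8.43). They overlapped between neighbouring ages and were fully separated between 35 and 91 dpc, with a rise of 2.18 ± 0.24 (4.52-fold, limma adjusted p = 1.71e-09). ORC3 rose by 0.64 ± 0.19 and 0.57 ± 0.19. Its first rise did not pass after quantile normalisation (adjusted p = 0.0788) or among the arrays with a small spike-in gap (0.49, adjusted p = 0.154), nor its second among those with a large gap (0.44, adjusted p = 0.219). Members of this complex moved in opposite directions, each by its own test, with ORC4 read from a single probe set. Its other probe sets, with means of 2.21 and 2.27, did not pass the filter on low values.

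Among polymerases, clamp and loader, the decline was mostly late. From 35 to 63 dpc 6 of 11 genes fell and none rose, with a median of -0.27. From 63 to 91 dpc 10 fell and 1 rose, with a median of -0.96. POLA2, the second subunit of the primase-bound polymerase alpha, fell in both intervals (-1.07 ± 0.12 and -1.50 ± 0.12), to a level 5.92-fold lower at 91 than at 35 dpc, with no overlap between ages. POLD2, an accessory subunit of polymerase delta, fell by 1.27 ± 0.18 in the first interval and by 0.94 ± 0.18 in the second, and the difference of the intervals did not pass the test (limma adjusted p = 0.551). The polymerase epsilon subunits POLE2, POLE3 and POLE4 fell by 0.42, 0.33 and 0.83 in the first interval and by 1.0, 1.22 and 0.96 in the second. The call of the first fall of POLE2 was lost when all probe sets of a gene were averaged and within both sets of arrays by spike-in gap.

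PCNA, the sliding clamp that holds polymerases on DNA, followed another course. Its array values lay from 10.36 to 11.63 at 35 dpc (median 11.11), from 11.14 to 11.58 at 63 dpc (median 11.26), and from 9.49 to 10.72 at 91 dpc (median 10.16). The arrays at 63 dpc fell within the range at 35 dpc, and every array at 91 dpc lay below every array at 63 dpc. Accordingly the first difference did not pass (0.26 ± 0.14, limma adjusted p = 0.123), and the second was -1.09 ± 0.14 (2.13-fold, adjusted p = 1.83e-07). POLD3, POLD4 and RFC3 had first differences between -0.16 and -0.04, none passing the test, and fell by 1.13, 0.63 and 0.66 in the second interval. RFC5 fell in both, by 0.27 and 0.87. RFC1, the large subunit of the clamp loader, was the exception of the group. It did not pass at first (0.36 ± 0.18) and then rose, by 0.49 ± 0.18 with a limma adjusted p of 0.0221.

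The nucleotide supply genes and topoisomerase II split. RRM2, the subunit of ribonucleotide reductase made in S phase, had values between 12.56 and 13.22 at 35 dpc (median 13.02), between 10.88 and 12.08 at 63 dpc (median 11.29), and between 8.30 and 10.13 at 91 dpc (median 9.40). The 3 ages did not overlap. Its whole-span reduction of 12.3-fold (-3.63 ± 0.18, limma adjusted p = 8.44e-17) was the largest of the 77 genes. RRM1, the other subunit of the enzyme and one that is more stable through the cycle, had values from 10.40 to 11.52 at 35 dpc (median 11.08), from 10.85 to 11.47 at 63 dpc (median 11.25), and from 10.51 to 11.52 at 91 dpc (median 11.09). The ages overlapped widely, and the means at 35 and 91 dpc differed by 0.00 ± 0.12. RRM1 was called higher at 63 than at 35 dpc (0.26 ± 0.11, limma adjusted p = 0.0462), a call lost after quantile normalisation, with array weights, without the trend in the variance, without the filter on low signal, with the arrays of these ages only, within both sets of arrays by spike-in gap and in 14 of 32 refits that left out 1 array, and its second difference did not pass (-0.25 ± 0.11, adjusted p = 0.0501).

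TYMS, thymidylate synthase, had values between 7.81 and 8.88 at 35 dpc (median 8.45), between 7.32 and 8.58 at 63 dpc (median 7.96), and between 5.48 and 7.53 at 91 dpc (median 6.46). Its arrays overlapped between neighbouring ages, and the fall from 63 to 91 dpc was -1.46 ± 0.20 (2.75-fold, limma adjusted p = 2.73e-07). TOP2A, the topoisomerase that separates sister DNA and a common proliferation marker, went the other way, with values from 8.11 to 9.28 at 35 dpc (median 8.67), from 8.15 to 10.52 at 63 dpc (median 9.67), and from 8.83 to 10.42 at 91 dpc (median 9.67). The arrays at 63 dpc spanned more than those at either other age and overlapped both. From 35 to 63 dpc TOP2A rose (0.90 ± 0.24, limma adjusted p = 0.00199), and its later difference was 0.07 ± 0.24. The rise was 1.14 among arrays with a large spike-in gap (adjusted p = 0.000802) and 0.70 among those with a small gap, where it did not pass (adjusted p = 0.221).

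The spike-in gap moved with the level of some of these genes within an age. At 35 dpc CCNA2 averaged 5.81 over 6 arrays with a large gap and 7.04 over 4 with a small gap, and at 63 dpc it averaged 5.03 and 6.57 over 6 arrays each, without overlap at either age. TYMS was likewise lower in arrays with a large gap at each age, by 0.52, 0.73 and 0.97, and MCM4 by 0.65, 0.82 and 0.30. TOP2A was higher in arrays with a large gap, by 0.20, 0.65 and 0.47, and ORC4 by 0.46, 0.51 and 0.73. With the gap as a block in the fit, TYMS passed from 35 to 63 dpc (-0.49, limma adjusted p = 0.00046) and CCNA2 did too (-0.60, adjusted p = 0.0111). The gap was balanced over diets and nearly so over ages. With it as a block 49 genes fell and 14 rose in the first interval, and 54 fell and 9 rose in the second.

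**Figure D2:**
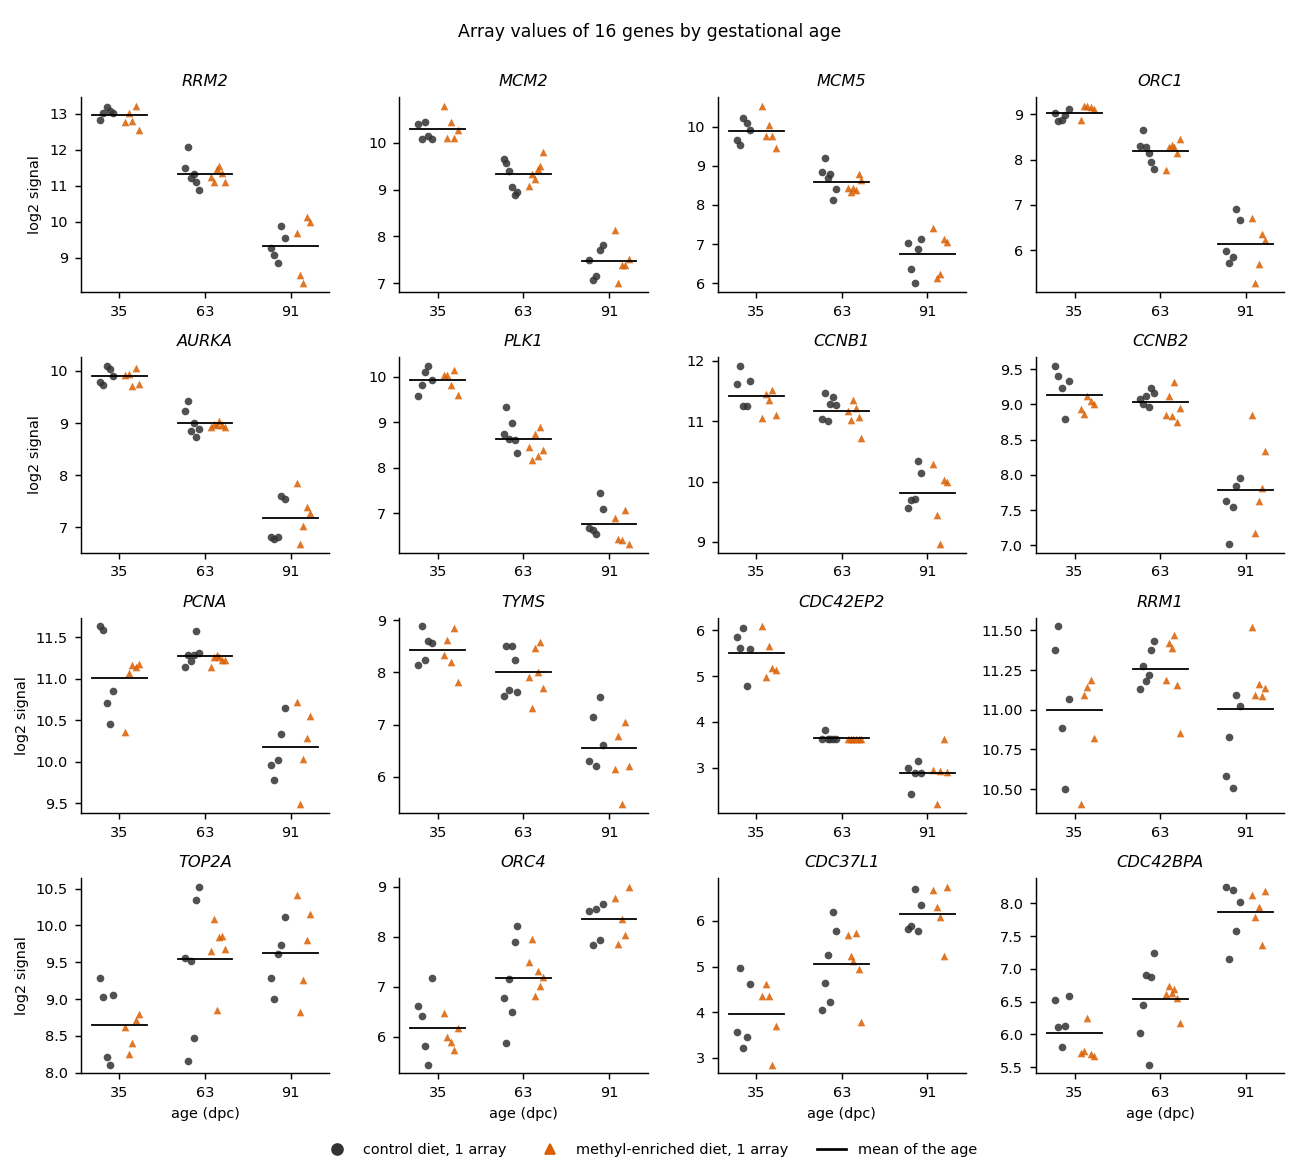
Log2 signal on each of the 32 arrays for 16 genes against age in dpc (grey circles, control diet; orange triangles, methyl-enriched diet; black lines, mean of the age). RRM2, MCM2, MCM5, ORC1, AURKA and PLK1 step down without overlap, PCNA drops only at 91 dpc, and 11 of the 12 values of CDC42EP2 at 63 dpc are equal within 0.01.

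Cyclins, CDK2 and the CDC25 phosphatases also declined late. Of these 7 genes, 3 fell from 35 to 63 dpc and 6 fell from 63 to 91 dpc, with none rising in either interval and medians of -0.50 and -1.30. CCNB1, a cyclin that drives entry into mitosis, had values between 11.05 and 11.91 at 35 dpc (median 11.40), between 10.73 and 11.46 at 63 dpc (median 11.19), and between 8.97 and 10.34 at 91 dpc (median 9.85). The first 2 ages overlapped and the third lay wholly below them. Its first difference did not pass (-0.25 ± 0.13, limma adjusted p = 0.0885) and its second was -1.35 ± 0.13 (2.55-fold, adjusted p = 3.97e-10).

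CCNB2, the related B-type cyclin, had values from 8.79 to 9.55 at 35 dpc (median 9.08), from 8.75 to 9.32 at 63 dpc (median 9.04), and from 7.02 to 8.86 at 91 dpc (median 7.73). Here a single array at 91 dpc, array 1 of the methyl-enriched group, reached into the range of the earlier ages. That array also had the highest 3′ to 5′ ratio of all arrays (3.34), and a link between the 2 was not tested. The first difference was -0.10 ± 0.14 and did not pass, and the second was -1.25 ± 0.14 (limma adjusted p = 9.76e-09). CCNA2, the cyclin of S phase and G2, had values between 5.20 and 7.33 at 35 dpc (median 6.35), between 4.61 and 7.0 at 63 dpc (median 5.82), and between 3.55 and 4.68 at 91 dpc (median 4.12), and it fell by 1.63 ± 0.30 in the second interval. CCND2, a cyclin that links growth signals to G1 progress, fell by 0.82 ± 0.18 and 1.37 ± 0.18.

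CDK2, the partner of cyclins E and A, had values from 8.20 to 8.84 at 35 dpc (median 8.41), from 7.50 to 8.21 at 63 dpc (median 7.87), and from 5.86 to 7.07 at 91 dpc (median 6.72). It fell by 0.60 ± 0.11 and then by 1.16 ± 0.11 (limma adjusted p = 2.23e-05 and 3.19e-10), with overlap between the first 2 ages only. The phosphatase CDC25B, which activates cyclin-dependent kinases, fell by 0.71 and 1.30, while CDC25C did not pass in any age comparison (0.36, -0.36 and 0.01).

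Of the mitotic genes, PLK1, CDCA3 and AURKB fell farthest over the whole span. Of 15 genes, 11 fell and 1 rose from 35 to 63 dpc, and 11 fell and none rose from 63 to 91 dpc. PLK1, a kinase needed for mitotic entry and spindle assembly, had values between 9.58 and 10.24 at 35 dpc (median 9.98), between 8.17 and 9.33 at 63 dpc (median 8.61), and between 6.33 and 7.45 at 91 dpc (median 6.64). The ages did not overlap, and the whole-span reduction was 9.06-fold (-3.18 ± 0.14, limma adjusted p = 4.02e-18). AURKA, a kinase of spindle poles, lay from 9.72 to 10.09 at 35 dpc (median 9.91), from 8.72 to 9.42 at 63 dpc (median 8.96), and from 6.69 to 7.85 at 91 dpc (median 7.15). It separated likewise by age, with differences of -0.90 ± 0.12 and -1.82 ± 0.12.

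AURKB, the Aurora kinase of the chromosomal passenger complex, fell by 1.15 ± 0.15 and 1.92 ± 0.15, and CDCA3, which promotes the destruction of a mitotic inhibitor kinase, by 1.14 ± 0.13 and 2.01 ± 0.13. Both reached whole-span reductions of 8.4-fold and 8.91-fold without overlap between ages. CDC20, an activator of the anaphase-promoting complex, had values between 9.38 and 10.84 at 35 dpc (median 9.77), between 8.38 and 9.41 at 63 dpc (median 8.78), and between 6.83 and 7.73 at 91 dpc (median 7.12). The first 2 ages overlapped and the third lay below both, with falls of 1.11 and 1.59. Among subunits of that complex, CDC26 fell by 0.39 and 0.58, whereas CDC23 did not pass at first (-0.15) and fell by 0.50 later. BUB3 of the spindle checkpoint fell by 0.45 and 0.75. CDC34, a ubiquitin-conjugating enzyme of the G1 to S transition, fell early (-0.60) and did not pass late (-0.21, limma adjusted p = 0.181).

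Centromere proteins did not move as a block. CENPO, CENPT and CENPB, which build or bind the centromere, fell in both intervals, by 1.22, 1.20 and 0.95 at first and by 1.15, 1.73 and 0.97 later. CENPF, a large protein of the outer kinetochore, did not pass in either interval (0.38 and 0.30) and was higher at 91 than at 35 dpc by 0.68 ± 0.23 (limma adjusted p = 0.0085). CENPH did not pass in any comparison of ages (0.30, -0.37 and -0.07). CENPI, which sits beside CENPH in the inner kinetochore, was called higher at 63 than at 35 dpc (0.62 ± 0.26, limma adjusted p = 0.0374), a call lost after quantile normalisation, without the filter on low signal, with the arrays of these ages only, in 10 of 32 refits without 1 array and within both sets of arrays by spike-in gap (0.80, adjusted p = 0.0842, and 0.43, adjusted p = 0.312).

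Of the 7 cyclin-dependent kinases outside the core cycle, 5 fell and 2 rose from 35 to 63 dpc, and 4 fell and none rose from 63 to 91 dpc. Among all probe sets 28% fell and 32.5% rose early, and 29% fell and 29.5% rose late. Over the whole span 5 were lower and 2 higher, with a median of -0.92. CDK16 fell by 1.0 and 0.92, CDK9, a kinase of transcription elongation, by 0.63 and 0.61, CDK5 by 0.87 and 0.41, and CDK11B by 0.55 and 0.37. CDK10 fell early only by its own tests (-0.55, then -0.04). CDK7, part of the kinase that activates other cyclin-dependent kinases and of transcription factor TFIIH, lay from 4.50 to 5.37 at 35 dpc (median 5.08), from 5.41 to 6.69 at 63 dpc (median 5.76), and from 5.26 to 6.23 at 91 dpc (median 5.78). All arrays at 63 dpc were above those at 35 dpc, a rise of 0.80 ± 0.14 (limma adjusted p = 1.19e-05), and the later difference was -0.07. CDK13, another transcription kinase, rose by 0.44 and then differed by 0.05. A second CDK13 probe set, with a mean of 5.02, did not pass early (0.07, limma adjusted p = 0.703) or late (0.01).

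CDC42, a small GTPase of the actin cytoskeleton, and its partners share the prefix of the cell division cycle genes without being part of the replication machinery. CDC42 itself fell by 0.42 ± 0.13 and 0.53 ± 0.13. Its first fall was lost when the values of all its probe sets were averaged (adjusted p = 0.148), and another of its probe sets had the opposite sign in that interval. CDC42EP2, an effector that binds CDC42, was lower on every array at 63 dpc than on any at 35 dpc. Its values ran between 4.78 and 6.09 at 35 dpc (median 5.60), between 3.62 and 3.82 at 63 dpc (median 3.62), and between 2.20 and 3.62 at 91 dpc (median 2.91). However, 11 of 12 arrays at 63 dpc held the same value of 3.62 within 0.01, so that the spread at that age was close to 0. The fitted difference of -1.86 ± 0.15 is taken against that repeated value, and its size rests on it.

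CDC42SE1, a small effector, fell by 1.02 in each interval. CDC42BPA, a kinase that acts downstream of CDC42, had values from 5.68 to 6.58 at 35 dpc (median 5.96), from 5.54 to 7.25 at 63 dpc (median 6.62), and from 7.15 to 8.25 at 91 dpc (median 7.98). The arrays at 91 dpc lay above all but the highest at 63 dpc and wholly above those at 35 dpc, and the late rise of 1.32 ± 0.17 (2.5-fold, limma adjusted p = 1.08e-07) was the largest of the 77 genes. CDC42SE2 rose by 0.47 and 0.32, the second of these lost in 17 of 32 refits without 1 array. CDC42EP3 differed by 0.00 at first and fell by 0.75 later, CDC42EP5 and CDC42EP1 fell in the first interval only by their own tests (-0.50, and -0.23 with the call lost in 6 of 32 refits without 1 array), and CDC42BPB did not pass in any age comparison.

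The last 15 genes entered by name, as binding partners, relatives or genes numbered after cell division mutants. Of these, 9 fell and 5 rose in the first interval, beside 28% and 32.5% of all probe sets. In the second, 9 fell and 4 rose, beside 29% and 29.5%. The share that rose was thus near that of all probe sets in both intervals. CDK2AP1, CDK2AP2, CDK5RAP1, CDK5RAP3, CCNDBP1, CDC37, POLDIP2 and POLDIP3 fell in both intervals, by 0.41 to 0.99 at first and by 0.46 to 0.84 later. CDC37L1, a relative of the kinase chaperone CDC37, rose at each step (1.08 ± 0.29 and 1.11 ± 0.29). Its values were between 2.85 and 4.96 at 35 dpc (median 4.03), between 3.78 and 6.19 at 63 dpc (median 5.17), and between 5.23 and 6.74 at 91 dpc (median 6.20), overlapping between neighbouring ages and separated between 35 and 91 dpc. A second CDC37L1 probe set, with a mean of only 2.85, did not pass early (0.13, limma adjusted p = 0.491). It rose late by 0.37 (adjusted p = 0.0419).

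CDC5L, a component of the splicing machinery, had values from 7.32 to 8.83 at 35 dpc (median 7.82), from 8.20 to 9.54 at 63 dpc (median 9.06), and from 9.46 to 10.05 at 91 dpc (median 9.77). It rose by 1.02 ± 0.17 and 0.73 ± 0.17 (limma adjusted p = 1.11e-05 and 0.000676), the second call being lost when all its probe sets were averaged (adjusted p = 0.0882). CCNB1IP1, a ubiquitin ligase known from meiosis, rose by 0.52 and 0.38, and PLK2 by 0.57 and 0.37, the latter lost in 11 of 32 refits without 1 array. CDCA7L rose by 0.69 at first and differed by -0.19 later. PLK3 was near background, with 16 of 32 arrays at 2.86 within 0.01, and its first fall of 0.52 rests on the higher values of 35 dpc. CDC123, a factor of translation initiation, did not pass early (-0.26) and fell late by 0.35, a call lost in 4 of 32 refits without 1 array.

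The change from 63 to 91 dpc was set against that from 35 to 63 dpc gene by gene, both intervals spanning 28 days. This comparison was chosen after the values of both intervals had been seen, and it uses the 63 dpc arrays in both terms. The late difference was lower than the early one in 19 of 77 genes, beside 8.31% of all probe sets, and higher in CDC42EP2 alone, beside 4.7%. Of the 19, 17 fell in the late interval and 8 in the early one. PCNA showed the largest contrast (-1.34 ± 0.24, limma adjusted p = 0.000335), then ORC1 (-1.22 ± 0.25), CCNB2 (-1.16 ± 0.24), CCNB1 (-1.10 ± 0.22) and TYMS (-1.04 ± 0.33). POLE3 had the smallest p (-0.89 ± 0.13, adjusted p = 1.35e-05). POLD3, AURKA, MCM2, CDCA7L, CDK7, ORC6, CDCA3, CDC45, CDC42EP3, RFC3, RFC5, CDK2 and POLD4 made up the rest, between -0.97 and -0.55.

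For RRM2, MCM5 and PLK1, which fell steeply from the start, the contrast did not pass. It was -0.37 ± 0.30 (limma adjusted p = 0.464), -0.54 ± 0.28 (0.225) and -0.58 ± 0.22 (0.0881). Early fallers were not all alike, as CDCA3, MCM2, AURKA and ORC1 also fell in the first interval and passed. Within the arrays of a large spike-in gap all 19 differences kept their direction and 4 passed, and within those of a small gap all 19 kept it and 1 of them passed, POLE3. Leaving out 1 array at a time, 15 of the 19 passed in all 32 refits, while CDK2, POLD3, POLD4 and TYMS were lost in 10 to 17 of them. For CDC42EP2 the contrast of 1.11 ± 0.25 rests on the nearly constant values at 63 dpc, and it was 0.68 in arrays of a small gap (adjusted p = 0.564).

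Marker genes of blood cells moved over the same ages, and their part in the decline was not tested. For the marker counts, 28% of all probe sets fell and 32.5% rose early, and 29% fell and 29.5% rose late. Erythroid markers (11 of 24 measured) had mean signals of 10.68 to 11.34 at 35 dpc, 10.14 to 10.82 at 63 dpc and 8.03 to 9.20 at 91 dpc, with 9 of 11 falling in each interval and HBB rising in both. Neutrophil markers (6 of 9 measured) lay between 7.30 and 8.50, 8.33 and 9.56, and 6.70 and 7.99 at the 3 ages, all 6 rising and then falling. Megakaryocyte and progenitor markers (6 of 8 measured) lay between 5.30 and 5.62, 5.44 and 6.09, and 4.51 and 5.06, with 2 of the 4 that passed the filter rising early and all 4 falling late, with CD34 and GP9 near background throughout.

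Marker lists of other liver cells did not share 1 course. Hepatocyte markers (15 of 17 measured) had mean signals of 13.89 to 14.41, 14.56 to 14.90 and 14.92 to 15.08, with 9 rising and none falling early, and 5 rising and 4 falling late. Macrophage markers (8 of 11) lay at 6.72 to 7.49, 7.06 to 7.80 and 8.02 to 8.68, with 1 rising and 1 falling early, and 5 rising and 1 falling late. Endothelial markers (6 of 7) lay at 5.98 to 6.56, 6.78 to 7.11 and 6.85 to 7.61, with KDR below background in every array at 35 and 63 dpc. Of the 5 that passed the filter, 3 rose and none fell early, and 2 rose and 1 fell late, VWF, whose mean went from 8.83 to 7.06. Cholangiocyte markers (3 of 4) lay at 3.60 to 4.57, 4.26 to 4.93 and 4.46 to 5.90, with SOX9 below background in every array, and of the 2 that passed the filter 1 rose and 1 fell early and both rose late. Stellate or mesenchymal markers (6 of 7) lay at 5.63 to 6.08, 5.25 to 5.59 and 5.40 to 5.87, with COL3A1 and LUM near background. Of the 4 that passed the filter, 2 fell and none rose early, and 1 rose and none fell late.

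**Figure D3:**
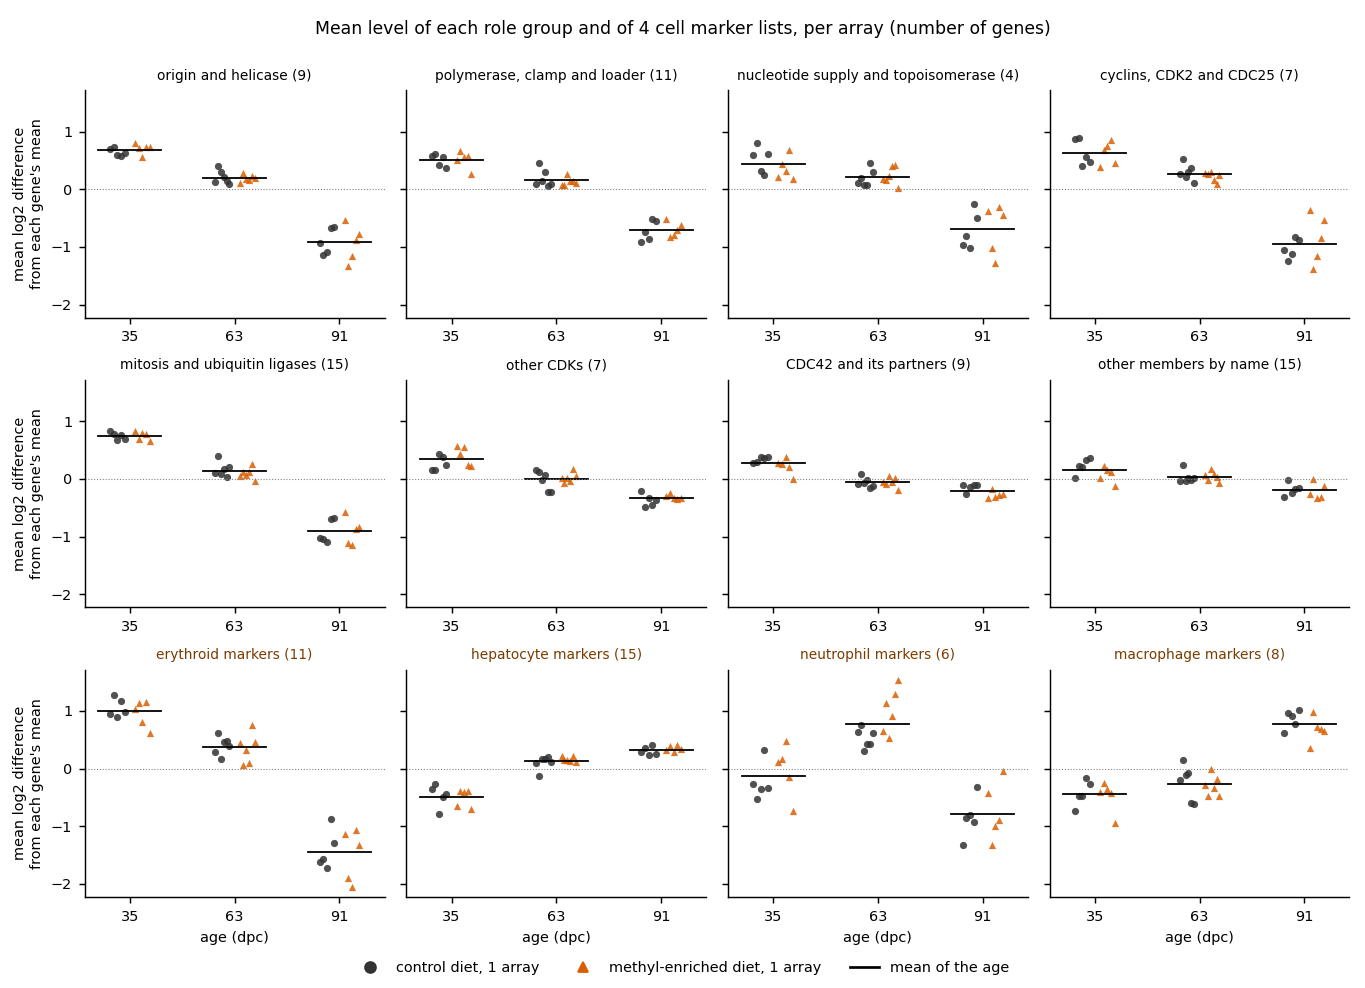
Mean log2 level of each of the 8 role groups and of 4 marker lists on each array, as the difference from each gene's mean over all arrays, against age in dpc (grey circles, control diet; orange triangles, methyl-enriched diet; lines, mean of the age). Origin and helicase genes go from 0.68 at 35 dpc to -0.92 at 91 dpc and erythroid markers from 1.0 to -1.45, while hepatocyte markers go from -0.49 to 0.33. Of the 15 hepatocyte markers, 7 were higher and 4 lower at 91 than at 35 dpc, with a median difference of 0.18.

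Cell cycle genes outside the naming rule also fell more often than they rose. They were read on the same 32 arrays and chosen with earlier results of these data known, so they are no independent check. Of 88 such genes, 46 were on the array with a single symbol and 44 passed the filter. From 35 to 63 dpc 22 fell and 10 rose, beside 28% and 32.5% of all probe sets. From 63 to 91 dpc 32 fell and 2 rose, beside 29% and 29.5%. Over the whole span 29 were lower and 8 higher, beside 39.1% and 40.8%. PKMYT1, a kinase that restrains CDK1, fell most early (-2.24 ± 0.18), followed by RNASEH2A, a nuclease that removes RNA from DNA (-1.28 ± 0.15), and CDKN2D, an inhibitor of cyclin D kinases (-1.13 ± 0.15). Late, CDKN2D (-2.18 ± 0.15), UBE2C, the conjugating enzyme of the anaphase-promoting complex (-2.06 ± 0.12), and PTTG1, the securin that guards sister chromatid cohesion (-1.97 ± 0.14), fell most.

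RBL2, a pocket protein of the retinoblastoma family known for repressing cycle genes in resting cells, rose in both intervals by 1.12 ± 0.17 and 1.11 ± 0.17 and was 2.23 ± 0.18 higher at 91 than at 35 dpc. CDKN1A, the kinase inhibitor p21, was the only other riser from 63 to 91 dpc in the list (0.91 ± 0.19, limma adjusted p = 0.000134), after a first difference of -0.04. HMMR, a spindle protein, and SMC4, a condensin subunit, rose early by 1.12 ± 0.32 and 0.95 ± 0.30, as TOP2A had.

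The diets were compared at each age, the question of the series' title. No gene of the 77 passed limma's test at 35, 63 or 91 dpc, in the average over ages or in the interaction of diet with age. Among all probe sets 0.0391% passed at 35 dpc, 0% at 63 dpc, 0.0718% at 91 dpc, 0% in the average and 0% in the interaction. At an unadjusted p under 0.05 the 77 genes gave 1, 2 and 4 differences at the 3 ages, 3 in the average and 1 in the interaction, while all 15327 probe sets gave 933, 219, 1000, 685 and 660. The medians over the 77 genes were -0.03, -0.04 and -0.01 at the 3 ages, beside -0.02, 0.03 and -0.04 for all probe sets.

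At 35 dpc PLK3 had the smallest p, and its levels in the control diet were 2.86, 3.17, 4.11, 4.18 and 4.93 against 2.86, 3.08, 3.12, 3.13 and 3.46 in the methyl-enriched diet. The 2 diets overlapped, with 3 control arrays above all of the methyl-enriched ones (-0.72 ± 0.26, limma adjusted p = 0.649). CDC42SE2 (-0.36 ± 0.20) and CDK11B (0.28 ± 0.16) came next, both with adjusted p of 0.876 or more.

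At 63 dpc BUB3 levels were 10.46, 10.51, 10.52, 10.59, 10.70 and 10.84 with the control diet and 10.15, 10.33, 10.35, 10.41, 10.41 and 10.42 with the methyl-enriched diet. It was the only gene of the 77 whose diets did not overlap at any age, beside 0.0326% of all probe sets lower without overlap at 63 dpc. The difference was -0.25 ± 0.09 (limma adjusted p = 1). CDCA7L was 0.39 ± 0.18 higher with the methyl-enriched diet at that age and CDC42SE2 0.35 ± 0.19 higher, both with an adjusted p of 1.

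At 91 dpc POLD3, a subunit of polymerase delta, had control levels of 4.01, 4.61, 4.67, 5.10 and 5.47 and levels of 4.90, 4.94, 5.84, 5.93 and 6.12 with the methyl-enriched diet. The upper 3 methyl-enriched arrays lay above all control arrays, and the difference was 0.77 ± 0.27 (limma adjusted p = 0.457). CDK5 was 0.53 ± 0.22 higher and RRM1 0.39 ± 0.16 higher with the methyl-enriched diet (adjusted p = 0.603 and 0.620). For RRM1 the control levels were 10.51, 10.58, 10.83, 11.02 and 11.09 and the others 11.09, 11.09, 11.14, 11.16 and 11.52, so that the diets met only at their nearest ends.

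Averaged over ages, BUB3 (-0.14 ± 0.06), CDK5 (0.28 ± 0.12) and CDC42EP3 (-0.23 ± 0.11) had the smallest p-values, each with an adjusted p of 0.999. In the test of whether the diet difference varied with age, CDC42SE2, RRM1 and CDC23 had unadjusted p-values of 0.0442, 0.0658 and 0.0782 and adjusted p-values of 1.

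**Figure D4:**
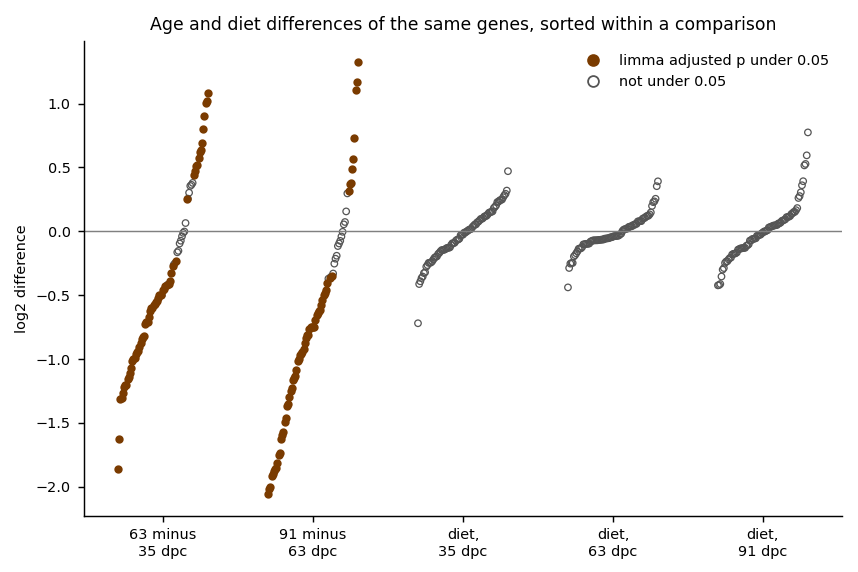
Log2 differences of the 77 genes, sorted within each comparison, for the 2 age intervals and for the methyl-enriched against the control diet at each age, with filled circles where limma's adjusted p was under 0.05. Age differences run from -2.06 to 1.32 and diet differences from -0.72 to 0.77, with no filled circle in the diet comparisons.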

How the data were processed

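Total RNA of 32 fetal livers was labelled with biotin and hybridised to 1-colour Affymetrix porcine arrays, per the labels' protocols. The authors deposited a table of log2 values for 24123 probe sets, which range from 2.20 to 16.6. The submitters' processing notes name GCOS 1.1.1; the background correction and normalisation are not given in the sources used here, so probe levels were compared between arrays and never between genes. Nearly equal values recur on several arrays for some genes, which lowers their spread.

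Values were used as deposited. After removal of 124 control probe sets, the 15327 above their array's 40th percentile (2.74 to 2.93) on at least 5 arrays were tested with limma 3.58.1 in R 4.3.3, on 6 group means of diet and age with an intensity trend. Age differences are averaged over both diets. Symbols come from GEO's platform annotation, which gives 1 symbol to 10069 probe sets, several to 198 and none to 13732, and which can be out of date. Below background means under the 40th percentile of the array.

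Members, role groups, the list of other cell cycle genes and the marker lists were chosen with earlier results of these data known. Array values were given for most genes of a core of 28 that were on the array (18), and for CDK7. They were also given for most of the 3 largest rises and falls in each age comparison. The same holds for some of the 3 smallest p-values in each diet comparison. The other members were named by role, with their differences. Of 32 further probe sets of these genes, 20 passed the filter, and 19, 19 and 20 had the sign of the chosen one in the 2 intervals and the whole span, the exceptions being CDC42 and CDC5L. The chosen and the further probe set were both called for 12, 18 and 18 of the 20. No 2 arrays held identical values (highest correlation 0.996). The fitting code was tested on simulated data. The array number, not a read depth, limits the precision.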

Additional observations from a re-analysis of the deposited data

Results flagged for a closer look

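In 204 sets of arrays (34 genes in 6 groups of diet and age) the highest or lowest array was compared with the rest of its group by Dixon's criterion. By chance it marks about 1 group in 20 where values do not repeat, and 15 of the 204 sets held an array that stood apart. Some of the 15 hold repeated values, as for PLK3 and CDC42EP2, so their number cannot be set against that rate. In the methyl-enriched group at 35 dpc, array 1 was low for PCNA (10.4, others 11.1 to 11.2), ORC1 (8.87, others 9.12 to 9.19) and CDCA7L (6.83, others 7.89 to 8.19), and array 3 was high for CDC42BPA (6.25, others 5.68 to 5.75). In the control group at 35 dpc array 1 was high for CDK2 (8.56, others 8.38 to 8.42).

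At 63 dpc the control group had a high array for PCNA (array 5, 11.6, others 11.1 to 11.3), for PLK3 (array 1, 3.87, others 2.86 to 2.93) and for CDC42EP2 (array 2, 3.82, the others all at 3.62). The methyl-enriched group at 63 dpc had a low array for BUB3 (array 6, 10.2, others 10.3 to 10.4), CDC42BPA (array 6, 6.17, others 6.56 to 6.74), CDK11B (array 2, 5.80, others 5.85 to 5.88) and TOP2A (array 3, 8.85, others 9.66 to 10.1).

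At 91 dpc array 1 of the methyl-enriched group was high for RRM1 (11.5, others 11.1 to 11.2) and array 4 low for CDK2 (5.86, others 6.67 to 6.94). Array 1 of the control group was low for PLK3 (2.79, others at 2.86).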

How the results depend on the processing

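Called age differences of the named members kept their direction under every alternative run, and the values that changed sign belong to comparisons that had not passed. Counts of falling genes stayed within 1.5 times in the 2 intervals and over the whole span. From 35 to 63 dpc the count of rising genes went from 14 to 8 after quantile normalisation and to 4 among the 14 arrays with a small spike-in gap, and from 63 to 91 dpc from 9 to 3 among those arrays, which are fewer. For the late against the early interval, the lower count went from 19 to 4 with large-gap arrays only and to 2 with small-gap arrays only, and the higher count from 1 to 3 after quantile normalisation, 2 with array weights and 0 with small-gap arrays.

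Leaving out 1 array at a time gave 12 to 16 rising and 45 to 47 falling genes in the first interval, 7 to 9 and 52 to 55 in the second, 14 and 57 to 58 over the whole span, and 1 to 2 higher and 15 to 23 lower in the contrast of intervals, with 0 diet calls throughout. Signs turned for RRM1 from 35 to 91 dpc (-0.0600 with array weights, -0.0528 with small-gap arrays, -0.0682 to 0.0597 without 1 array), CDC42EP3 from 35 to 63 dpc (0.00499 with the gap as a block, 0.12 with large-gap arrays, -0.0420 to 0.0286 without 1 array), POLD3 from 35 to 63 dpc (0.0160 with large-gap arrays), TOP2A from 63 to 91 dpc (-0.0637 with large-gap arrays, -0.0545 to 0.182 without 1 array) and CDK11B for diet at 35 dpc (-0.00154 with small-gap arrays). The causes were not tested.

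No paired analysis was possible because the labels carry no replicate numbers that join arrays across groups. Using the arrays of the compared ages only gives no value for the averaged diet difference, the interaction or the contrast of intervals. PLK3 lay near background, and values that repeat across arrays, as for PLK3 and for CDC42EP2 at 63 dpc, limit what their differences show.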
